A study of Mus musculus with 17 samples.

Results

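The spots described here are the 40 capture spots in each of 3 mouse brain sections whose RNA looked most like that of GABA neurons of the thalamic reticular nucleus, 120 of 7827 spots in all. Each spot was scored by the summed log-scaled level of 4 marker genes, Pvalb, Gad1, Slc32a1 and Ecel1, minus that of Slc17a7, and the 40 spots with the highest score were taken from each section among spots with at least 1000 counts. They are called reticular spots below, a name that rests on these genes alone, because spot positions were not used here. The other 7687 spots with at least 1000 counts served as their reference, 2747 in section 2, 2491 in section 5 and 2449 in section 6, and 20 spots fell below the count minimum.

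The study profiled the anterior thalamic nuclei of wild-type (WT) mice by Visium, a slide whose barcoded spots each capture RNA from a small patch of tissue, and by RNA sequencing of hand-picked single cells. The sections were 10 µm thick, cut from flash-frozen brains, stained for NeuN (a neuronal protein) and DAPI (a DNA dye) and permeabilized for 24 min. Sections 2 and 6 carry a posterior label and section 5 an anterior one. All 3 came from WT animals with no treatment named. Age, sex and strain are not given for the sections. Nothing in the labels says that the sections came from separate animals, so p-values below measure the spread between these sections, which may be technical. A spot can hold several cells of different types, so that fewer cells of a type and less RNA per cell cannot be told apart.

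The thalamic reticular nucleus is a thin shell of GABA neurons around the dorsal thalamus. Its neurons receive excitatory collaterals from thalamocortical and corticothalamic axons and inhibit the relay neurons of the thalamus, which are themselves excitatory. They fire fast trains of action potentials in wakefulness and bursts carried by low-threshold T-type calcium channels during sleep spindles, and most contain parvalbumin, many somatostatin.

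The genes of the score are given as a description, since they chose the spots. Pvalb, which encodes the calcium buffer parvalbumin, stood at 3260, 3026 and 3712 counts per 1000000 (CPM) in the reticular spots of sections 2, 5 and 6, summed over the 40 spots of each section, against 184, 160 and 205 CPM in the other spots. Gad1, the GABA-synthesizing enzyme, averaged 1906 ± 443 CPM in reticular spots, and Slc32a1, the vesicular GABA transporter, averaged 632 ± 35.9 CPM (SD, n = 3 sections). Slc17a7, the vesicular glutamate transporter of cortical neurons, stood at 27.7, 4.90 and 10.8 CPM in the reticular spots of sections 2, 5 and 6. Ecel1, an endothelin-converting-enzyme-like peptidase, was the sparsest of the score genes, with 31, 22 and 18 counts in the 40 reticular spots of the 3 sections. The lowest score taken and the highest score left out were 7.52 and 7.48 in section 2, 7.54 and 7.49 in section 5, and 8.19 and 8.18 in section 6, so the cutoff does not lie at a gap in the scores.

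Each marker was then left out of the score in turn, 40 spots per section were chosen by the remaining genes, and the omitted marker was tested between those spots and the rest. Pvalb was higher by 2.72 ± 0.09 on the log2 scale (SE; adjusted p = 1.55e-203), Gad1 by 2.38 ± 0.08 (adjusted p = 6.26e-212) and Slc32a1 by 1.80 ± 0.11 (adjusted p = 2.10e-57). Ecel1 did not pass, at 0.55 ± 0.30 (adjusted p = 0.237). The spots chosen without Ecel1 shared 97 of the 120 spots of the full selection, and those chosen without Pvalb shared 57. The other 3 markers thus went together in spots chosen without them, while for Ecel1 no difference was established at its low count.

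Reticular spots were close in depth to the other spots. Their median total count was 8365.5, 5106.5 and 6687 in sections 2, 5 and 6, against 9015, 5326 and 7229 in the other spots, and their summed counts were 360411, 204227 and 277771. Of the array's barcodes, which mark positions on a slide and not cells, 1252 occurred in all 3 sections and 2 held a reticular spot in more than 1 section.

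Against all other spots, 926 of 13444 genes tested were higher in reticular spots (6.89%) and 1262 were lower (9.39%), by edgeR's quasi-likelihood test with the section as a block. The median log2 fold change over all genes tested was -0.11. Without section 2 the count of higher genes was 609, and with DESeq2 618 genes were higher and 605 lower, so that the excess of lower genes was not present with that tool. The fit gave all genes 1 shared estimate of spread beyond counting error, so the very small p-values below rest on that shared estimate and not on each gene's own 3 sections.

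Known markers of the reticular nucleus that the score did not use were mostly higher: 10 of 12 tested rose and none fell, with a median log2 fold change of 1.32. Dlx5, at 0.53, and Dlx6os1, at 0.02, did not pass. The largest changes were in transcription factors. Six3, a homeobox factor expressed in reticular neurons, stood at 516, 646 and 695 CPM in the reticular spots of sections 2, 5 and 6, against 28.2, 45.1 and 44.8 CPM in the other spots. The groups did not overlap, and every section showed the difference. The log2 fold change was 4.01 ± 0.11 (SE; adjusted p = 9.97e-271). Isl1, a LIM-homeodomain factor of striatal and motor neuron lineages, stood at 69.4, 58.8 and 79.2 CPM in reticular spots, against 6.86, 6.41 and 6.28 CPM in the other spots. It was higher by 3.42 ± 0.32 on the log2 scale (adjusted p = 8.22e-25), again without overlap. Sp8, a zinc-finger factor of ventral forebrain progenitors and interneurons, averaged 38.4 ± 10.6 CPM in reticular spots and 3.26 ± 0.689 CPM in the other spots (SD, n = 3 sections each), a log2 fold change of 3.50 ± 0.44 (adjusted p = 9.45e-14). Meis2, a homeobox factor found in many GABA populations, rose less, by 0.85 ± 0.14 (adjusted p = 1.79e-08). Of 19 tested transcription factors of GABA neurons, 6 were higher, 3 were lower, Zic1 among them, and 10 did not pass.

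Six3 was also found spot by spot. It had at least 1 count in 32, 33 and 37 of the 40 reticular spots of sections 2, 5 and 6, which is 80.0%, 82.5% and 92.5%, against 18.3%, 16.6% and 20.0% of the other spots. In spots chosen for relay-neuron genes, where Six3 is not a marker, the shares were 15.0%, 12.5% and 20.0%. In spots chosen for striatal genes, which are also rich in GABA neurons, they were higher, at 52.5%, 65.0% and 62.5%. After each spot was thinned to 1000 counts, Six3 remained in 40%, 52.5% and 42.5% of reticular spots, against 2.33%, 4.70% and 4.94% of the other spots. The thinned shares in striatal spots were 10.0%, 17.5% and 10.0%. The difference is therefore present at equal depth.

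The 120 bases before the start site of Six3, Isl1 and Sst are printed because these 3 genes, which the score did not use, are the identity markers that the comparisons below return to. They come from RefSeq on GRCm38.p6, in the direction of transcription. Capitals mark CCAAT, a common promoter box, or TGACGTCA, the full cAMP response element.
Six3, chr17:85620714-85620833, plus strand: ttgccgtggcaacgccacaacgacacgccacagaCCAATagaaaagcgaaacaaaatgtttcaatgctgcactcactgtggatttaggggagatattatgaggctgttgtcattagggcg
Isl1, chr13:116309689-116309808, minus strand: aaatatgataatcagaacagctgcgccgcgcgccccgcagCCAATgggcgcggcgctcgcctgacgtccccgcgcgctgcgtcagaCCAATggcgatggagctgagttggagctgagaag
Sst, chr16:23890845-23890964, minus strand: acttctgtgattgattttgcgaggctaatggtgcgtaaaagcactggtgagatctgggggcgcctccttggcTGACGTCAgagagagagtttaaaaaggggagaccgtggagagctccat

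The Sst window holds TGACGTCA 48 bases before the start, a match shared with 407 of 32844 such windows of all genes (1.24%). The Six3 window holds CCAAT 86 bases before the start and the Isl1 window holds it at 80 and 34 bases, while CCAAT on either strand is in 21.3% of all windows. These matches describe the letters of the windows only, and no binding was measured.

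Genes of GABA synthesis and transport outside the score were higher in 5 of 7 tested and lower in none. Gad2, the second GABA-synthesizing enzyme, stood at 1165, 1170 and 1069 CPM in reticular spots, against 232, 234 and 214 CPM in the other spots, and the sections of each set lay close together. Its log2 fold change was 2.33 ± 0.09 (adjusted p = 7.64e-159). Abat, which breaks GABA down, averaged 519 ± 69.6 CPM in reticular spots and 230 ± 7.75 CPM in the other spots (SD, n = 3 sections each; log2 fold change 1.16 ± 0.10, adjusted p = 3.79e-29). Slc38a1, a glutamine transporter, was higher by 1.08 ± 0.13 (adjusted p = 1.72e-15).

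Among neuropeptides and secreted proteins, Sst, which encodes somatostatin, stood at 946, 1591 and 1307 CPM in reticular spots, against 243, 343 and 342 CPM in the other spots. All reticular values lay above all values of the other spots, and the log2 fold change was 2.04 ± 0.08 (adjusted p = 4.37e-129). Spp1, which encodes the secreted phosphoprotein osteopontin, stood at 136, 78.3 and 173 CPM in reticular spots, against 14.1, 20.8 and 16.8 CPM in the other spots, and was higher by 3.0 ± 0.21 (adjusted p = 3.61e-45). Pnoc, the precursor of nociceptin, averaged 68.0 ± 15.0 CPM in reticular spots and 15.8 ± 1.34 CPM in the other spots (SD, n = 3 sections each), with a log2 fold change of 2.10 ± 0.27 (adjusted p = 4.53e-13). Of 18 neuropeptide genes tested, 4 were higher, 9 lower and 5 did not pass. Those that fell included Cck, which encodes cholecystokinin (-3.73 ± 0.17), Penk, the enkephalin precursor (-2.97 ± 0.17), and Tac1, the substance P precursor (-2.78 ± 0.30).

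**Figure D1:**
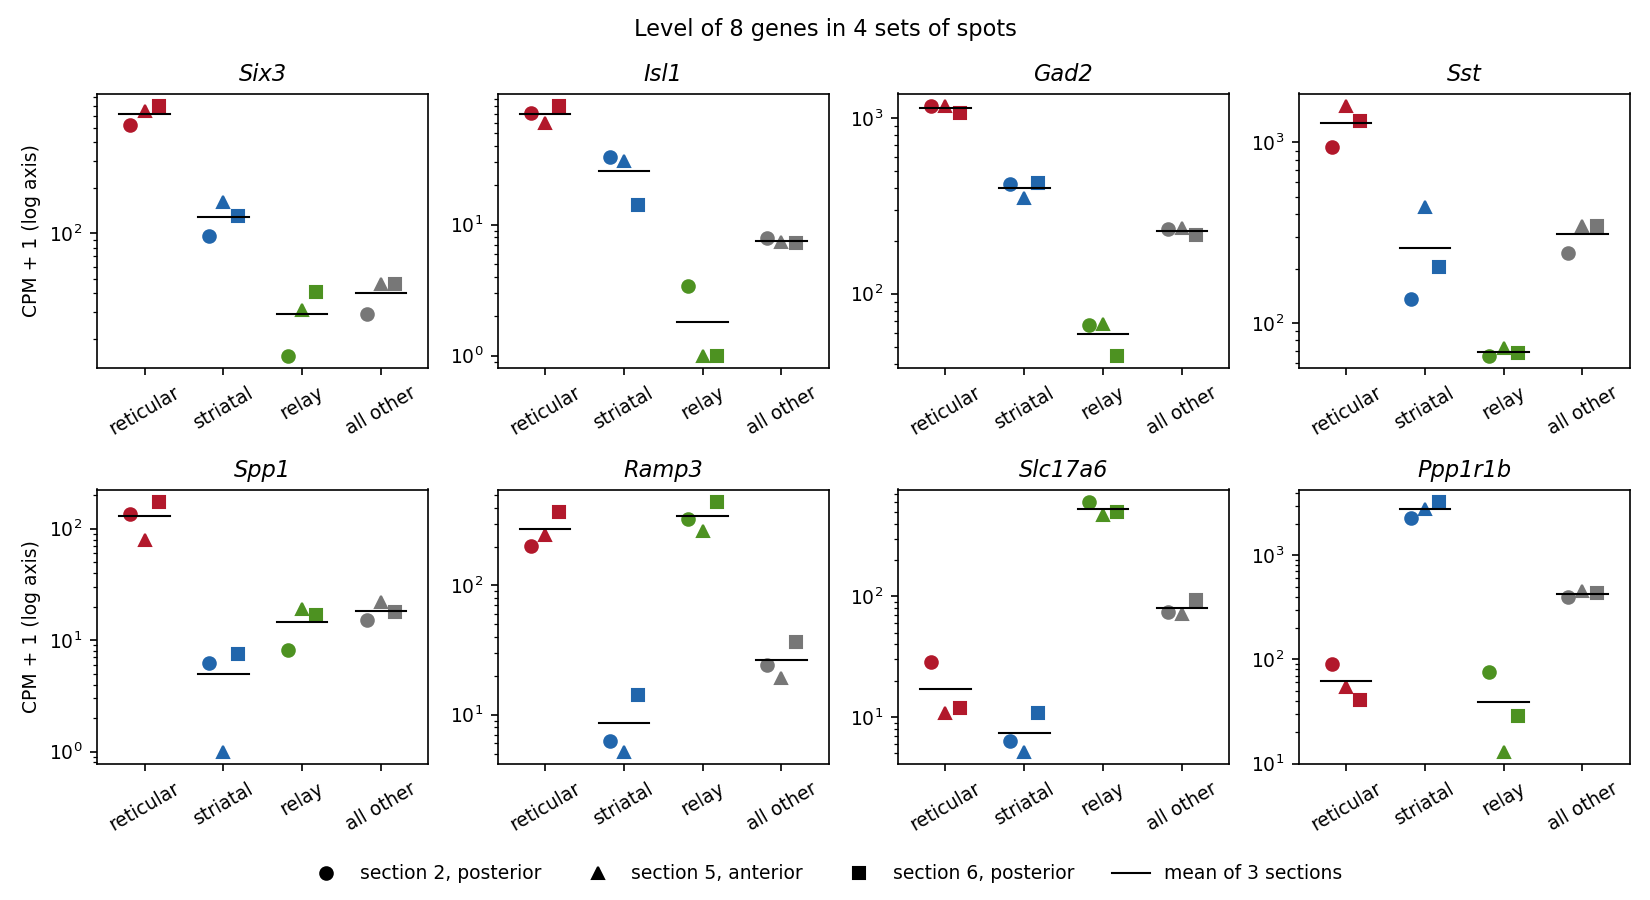
Level in CPM plus 1 (log axis) of 8 genes in reticular spots and, to their right, in striatal spots, relay thalamic spots and all other spots, with a point for each section and a line at the mean of the 3 sections. Six3 averaged 619 CPM in reticular spots and 39.4 CPM in all other spots. Ppp1r1b, which helped choose the striatal spots, averaged 60.8 CPM in reticular spots and 2765 CPM in striatal spots.

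Several further genes were named by the size of their fold change over the other spots or, for Ramp3, Serpinf1 and Plch1, over the striatal spots described below. Ubash3b, a phosphatase that acts on tyrosine kinase signals, stood at 319, 387 and 385 CPM in reticular spots, against 28.2, 30.4 and 31.9 CPM in the other spots, a log2 fold change of 3.58 ± 0.13 (adjusted p = 6.88e-154). Ramp3, a receptor-activity-modifying protein that pairs with the calcitonin-like receptor, stood at 203, 245 and 371 CPM in reticular spots, against 23.1, 18.1 and 35.8 CPM in the other spots (3.39 ± 0.15, adjusted p = 2.20e-106). For both genes all reticular sections lay far above all sections of the other spots. Ret, a receptor of glial-derived neurotrophic ligands, averaged 96.7 ± 15.6 CPM in reticular spots and 6.36 CPM in the other spots, and Fign, the microtubule-severing enzyme fidgetin, averaged 121 ± 11.2 CPM in reticular spots and 7.93 CPM in the other spots (SD, n = 3 sections). Serpinf1, a secreted serpin, was higher by 3.28 ± 0.26, Plch1, a phospholipase C, by 3.20 ± 0.32, Pln, the calcium-pump inhibitor phospholamban, by 3.82 ± 0.48, Cckar, a cholecystokinin receptor, by 3.89 ± 0.57, and Lancl3 by 4.57 ± 0.72.

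Fast-spiking neurons depend on rapid potassium channels, fast exocytosis proteins and thick, neurofilament-rich axons. Of 24 genes of this kind tested, 15 were higher in reticular spots, 2 (Kcnab1 and Scn4b) were lower and 7 did not pass, with a median log2 fold change of 0.75. Vamp1, a synaptic vesicle protein of fast synapses, stood at 377, 397 and 515 CPM in reticular spots, against a mean of 131 ± 17.1 CPM in the other spots (SD, n = 3 sections), and was higher by 1.71 ± 0.11 (adjusted p = 2.62e-52). Cplx1, which clamps vesicle release, was higher by 1.34 ± 0.08 and Nefh, the heavy neurofilament chain, by 1.87 ± 0.13 (adjusted p = 4.45e-45). Kcnmb2, a BK channel subunit, was higher by 3.55 ± 0.43 and Kcng4, a modifier of Kv2 channels, by 3.03 ± 0.34. Both genes were sparse, at means of 37.4 and 57.0 CPM in reticular spots.

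The channels behind bursting did not move as 1 group. Cacna1i, which encodes the T-type calcium channel Cav3.3, stood at 44.4, 73.4 and 112 CPM in the reticular spots of sections 2, 5 and 6, against 36.5, 40.5 and 36.6 CPM in the other spots. Section 6 was highest and section 2 only slightly above the other spots. The log2 fold change was 0.98 ± 0.22 (adjusted p = 0.000134), and without section 6 it was 0.52 (adjusted p = 0.332). Cacna1h, which encodes Cav3.2, averaged 18.6 CPM in reticular spots and 21.6 CPM in the other spots (adjusted p = 0.890). Cacna1g, which encodes Cav3.1 of relay neurons, averaged 27.3 CPM in reticular spots and 45.3 CPM in the other spots (-0.69 ± 0.29, adjusted p = 0.0931). It passed as lower with 80 spots per section (-1.04, adjusted p = 0.000114) and in spots chosen without any single marker of the score (adjusted p between 0.0224 and 0.0425).

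Kcnn2, the small-conductance calcium-activated potassium channel SK2 that follows T-type calcium entry in reticular neurons, was higher by 1.17 ± 0.23 (adjusted p = 8.33e-06). Of 9 calcium-activated and leak potassium channel genes tested, Kcnn2, Kcnk1 and Kcnk3 were higher, Kcnk2 and Kcnt1 were lower and 4 did not pass. Kcnk3, the leak channel TASK-1, was higher by 1.20 ± 0.28, and Kcnk2, the leak channel TREK-1, averaged 7.73 CPM in reticular spots and 67.8 CPM in the other spots (-2.99 ± 0.38). In spots chosen without Pvalb, Kcnn2 (0.22, adjusted p = 0.729) and Kcnk3 (0.41, adjusted p = 0.506) did not pass. Of 8 tested genes of hyperpolarization-activated and Kcnq channels, Hcn2, which carries the pacemaker current of thalamic neurons, was higher by 1.09 ± 0.13, while 3 were lower, Kcnq5 among them, and 4 did not pass. Kcnq5 stood at 11.1, 9.79 and 0 CPM in reticular spots, against a mean of 51.4 CPM in the other spots.

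GABA-A receptor subunits showed the opposite of a general rise: 1 of 12 tested was higher, 8 were lower and 3 did not pass, with a median of -1.15. The 1 that rose was Gabra3, the alpha-3 subunit known from reticular synapses, at 88.8, 103 and 101 CPM in reticular spots, against a mean of 54.3 CPM in the other spots (0.83 ± 0.19, adjusted p = 0.000190). Against the relay thalamic spots described below, where it averaged 76.9 CPM, Gabra3 did not pass (0.37 ± 0.26, adjusted p = 0.375). Gabra4 (-1.49 ± 0.25, adjusted p = 7.27e-08) and Gabrd (-1.23 ± 0.23, adjusted p = 2.32e-06), the alpha-4 and delta subunits of extrasynaptic receptors, were lower. Gabra4 stood at 19.4, 39.2 and 39.6 CPM in the reticular spots of sections 2, 5 and 6, against a mean of 86.6 CPM in the other spots.

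Glutamate receptor genes split. Of 14 ionotropic subunits tested, Gria4, Grin2c, Grin3a and Grik3 were higher, 6 were lower and 4 did not pass. Grin2a, the NMDA receptor subunit GluN2A, averaged 18.5 CPM in reticular spots and 139 CPM in the other spots (-2.88 ± 0.26, adjusted p = 1.61e-26), and Gria2, the AMPA receptor subunit GluA2 that blocks calcium entry, was lower at -1.27 ± 0.13. Of 7 metabotropic genes tested, 4 were lower and 3 did not pass, with Grm5 at -1.27 ± 0.20. Acetylcholine receptor genes also split by subtype. Chrm2, the inhibitory M2 receptor, stood at 55.5, 39.2 and 32.4 CPM in reticular spots, against a mean of 12.2 ± 1.98 CPM in the other spots, and was higher by 1.88 ± 0.33 (adjusted p = 4.03e-07). Chrm1, the excitatory M1 receptor, averaged 10.7 CPM in reticular spots and 69.4 CPM in the other spots (-2.67 ± 0.35). The M2 reticular values did not overlap those of the other spots.

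Calcium-binding proteins other than Pvalb were low as a list: 16 of 19 tested were lower, 1 was higher and 2 did not pass, with a median of -1.52. The gene that rose was Kcnip1, which encodes the calcium sensor KChIP1 of A-type potassium channels, at 155, 147 and 166 CPM in reticular spots, against a mean of 30.2 ± 3.15 CPM in the other spots (2.40 ± 0.18, adjusted p = 6.82e-39). Calb1, which encodes calbindin, stood at 38.8, 29.4 and 54.0 CPM in reticular spots, against a mean of 159 CPM in the other spots (-1.94 ± 0.20). Hpca, the hippocampal sensor hippocalcin, averaged 78.9 CPM in reticular spots and 556 CPM in the other spots. Pcp4, a calmodulin regulator, averaged 116 CPM in reticular spots and 1098 ± 52 CPM in the other spots (-3.16 ± 0.12).

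Components of the perineuronal net, the dense matrix around parvalbumin neurons, were higher in 4 of 13 tested and lower in 3. Hapln4, a hyaluronan link protein, stood at 194, 176 and 234 CPM in reticular spots, against a mean of 89.4 CPM in the other spots (1.19 ± 0.14, adjusted p = 2.73e-15). Immediate early genes, which follow recent activity, were lower in 8 of 13 tested and higher in none. Egr1 stood at 41.6, 34.3 and 7.20 CPM in reticular spots, against a mean of 266 CPM in the other spots, and Junb fell by 2.43 ± 0.28 on the log2 scale. Relay thalamic spots, described below, were low in this list too. Its sum there was 421, 498 and 446 CPM, against 383, 397 and 400 CPM in reticular spots. Against relay spots 2 of 8 tested were lower, 1 was higher and 5 did not pass. Nuclear genes of oxidative phosphorylation were higher in 25 of 28 tested and lower in none, with a median of 0.51. Cox7b, a subunit of cytochrome oxidase, averaged 1310 ± 157 CPM in reticular spots and 669 ± 60.5 CPM in the other spots (SD, n = 3 sections each). Of 13 genes encoded by the mitochondrial genome, none was higher and 4 were lower.

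**Figure D2:**
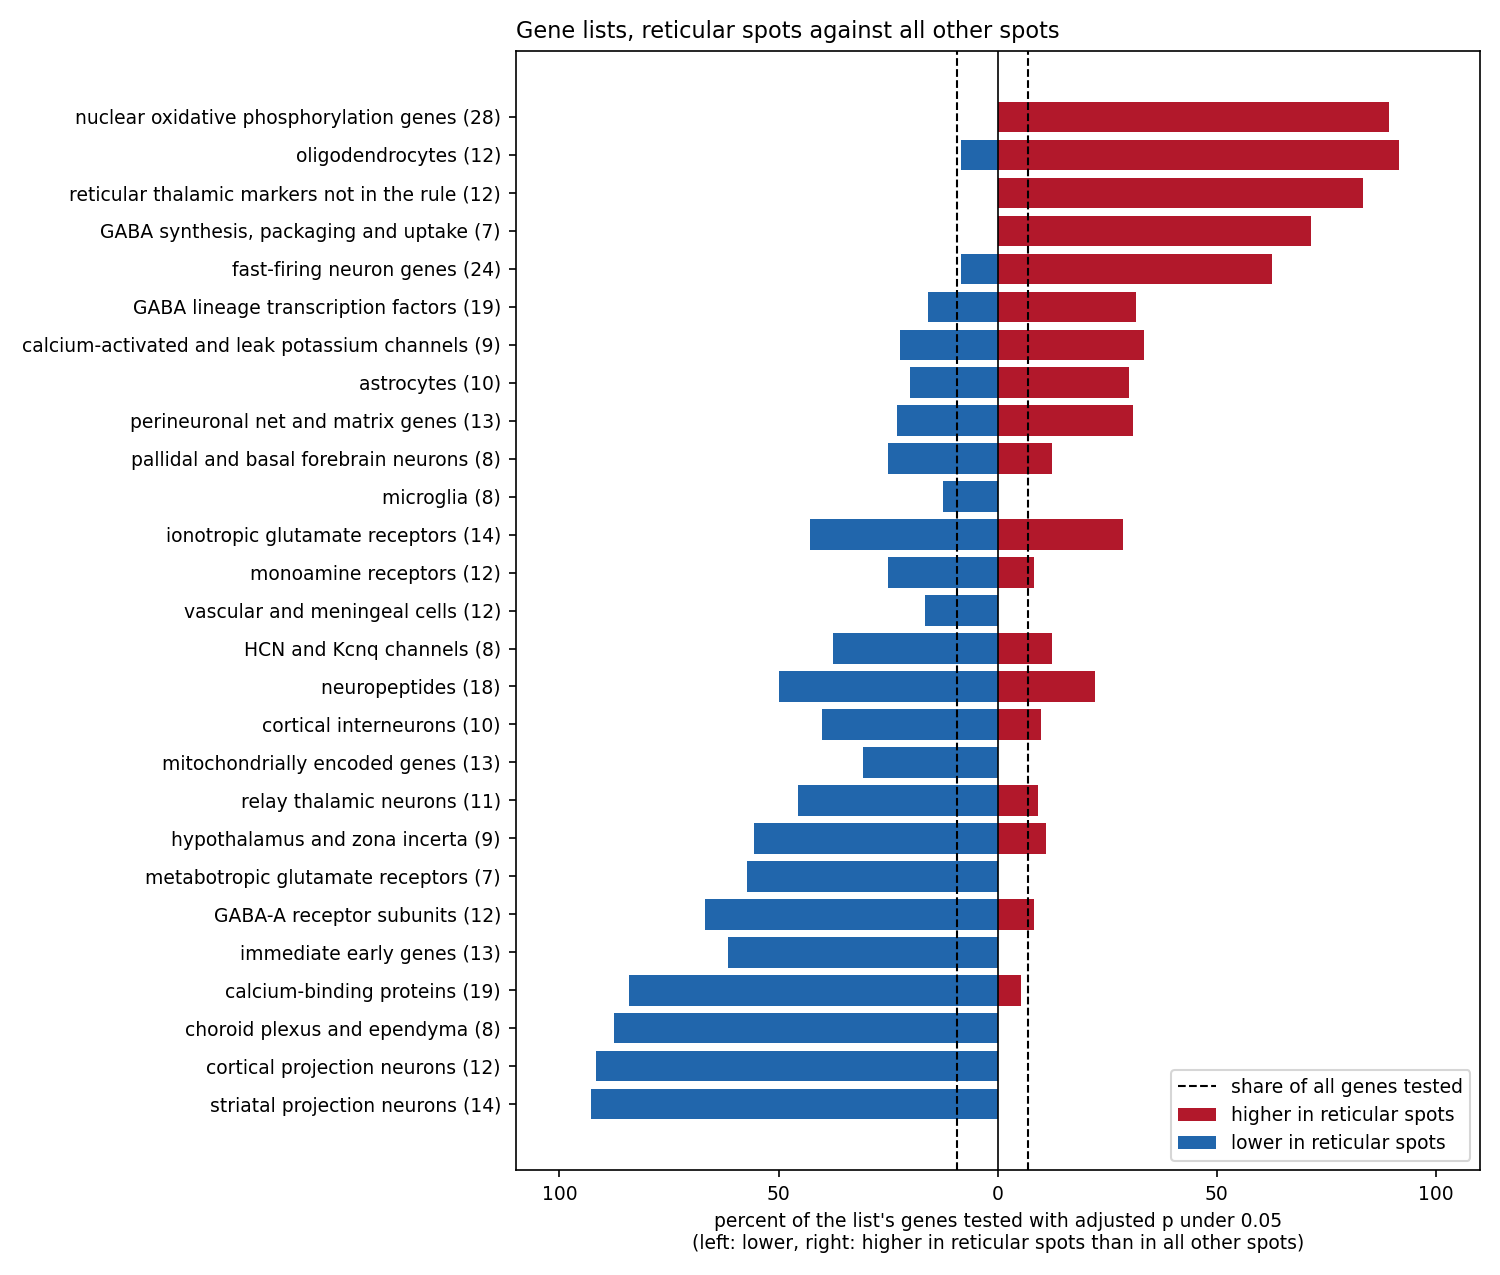
Percent of the tested genes of each list that were higher (right) or lower (left) in reticular spots than in all other spots at an adjusted p under 0.05, with dashed lines at the shares of all genes tested, 6.89% and 9.39%. Reticular markers and nuclear oxidative phosphorylation lie far to the right, and cortical and striatal neuron lists far to the left.

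Genes of other cell types were read beside the label. The score subtracts Slc17a7 of cortical neurons, so a fall of cortical genes was built into the selection and is no check of the label. Of 12 tested genes of cortical projection neurons 11 were lower and 1 did not pass, and of 14 striatal genes 13 were lower. Nrgn, a calmodulin-binding protein of cortical and striatal dendrites, averaged 114 CPM in reticular spots and 2095 CPM in the other spots, and Ppp1r1b, the dopamine signal protein DARPP-32, averaged 60.8 CPM in reticular spots and 428 CPM in the other spots. Among 8 tested genes of the globus pallidus, another parvalbumin-rich GABA structure, Kcng4 was higher, Foxp2 and Zic1 were lower and 5 did not pass. The pallidal and septal factor Nkx2-1 averaged 8.44 CPM in reticular spots and 4.74 CPM in the other spots, and Lhx6, a factor of pallidal neurons and cortical interneurons, averaged 6.31 CPM in reticular spots and 16.7 CPM in the other spots. Neither passed. Relay neuron genes ran in both directions. Of 11 tested 1, Ramp3, was higher, 5 were lower and 5 did not pass, with a median log2 fold change of -1.35. In sections 2, 5 and 6 they summed to 394, 377 and 547 CPM in reticular spots. In the other spots the sums were 376, 372 and 467 CPM. Ramp3 alone stood at 203, 245 and 371 CPM in reticular spots, against 23.1, 18.1 and 35.8 CPM in the other spots. The similar sums thus hide lower levels of other relay genes, such as Slc17a6 (-2.14 ± 0.30) and Tcf7l2 (-2.06 ± 0.29). In 27, 28 and 35 of the 40 reticular spots the relay list, with Ramp3 counted in, lay above the median of the other spots. Gbx2 was at 0. Chat, which defines cholinergic neurons, had no count in reticular spots, where 3 counts would be 3.56 CPM. Nov, Rgs14 and Krt12 also had no count there, so that they were at least 14.7-fold, 8.06-fold and 8.64-fold lower than in the other spots, from a floor of 3 counts over all reticular spots.

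Myelin genes moved with the selection. Of 12 oligodendrocyte genes tested, 11 were higher and Enpp2 was lower, and their summed level was 15233, 12320 and 12788 CPM in reticular spots, against 10038, 10249 and 10250 CPM in the other spots, with none at 0. Mbp, myelin basic protein, stood at 5302, 4529 and 4241 CPM in reticular spots, against 3346, 3307 and 3430 CPM in the other spots (0.48 ± 0.07, adjusted p = 2.77e-10). In spots chosen without Pvalb the difference in Mbp was 0.07 (adjusted p = 0.686) and that in Mobp, a second myelin protein, 0.13 (adjusted p = 0.427). Astrocyte genes were mixed, with 3 of 10 higher and 2 lower. Agt, which encodes angiotensinogen and in the brain is made by astrocytes, stood at 178, 230 and 151 CPM in reticular spots, against a mean of 76.6 CPM in the other spots. Slc1a2, the astrocytic glutamate transporter, was lower at -0.58 ± 0.08. The part of myelin and astrocyte RNA in the other differences was not tested.

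The markers change gradually along the score. Six3 had a median over sections of 798 CPM in ranks 1 to 10, 633 CPM in ranks 11 to 20, 464 CPM in ranks 21 to 40, 236 CPM in ranks 41 to 80, 137 CPM in ranks 81 to 160 and 37.9 CPM from rank 161. Gad2 declined in the same order, at 1249 CPM in ranks 1 to 10 and 212 CPM from rank 161. Penk ran the other way, with 27.3 CPM in ranks 1 to 10 and 400 CPM from rank 161. Ecel1 had its highest median, 143 CPM, in ranks 81 to 160, against 82.9 CPM in ranks 1 to 10, although section 5 was highest in ranks 1 to 10. Spots ranked just below the 40 thus still carried reticular markers at intermediate levels, and they count among the other spots here.

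**Figure D3:**
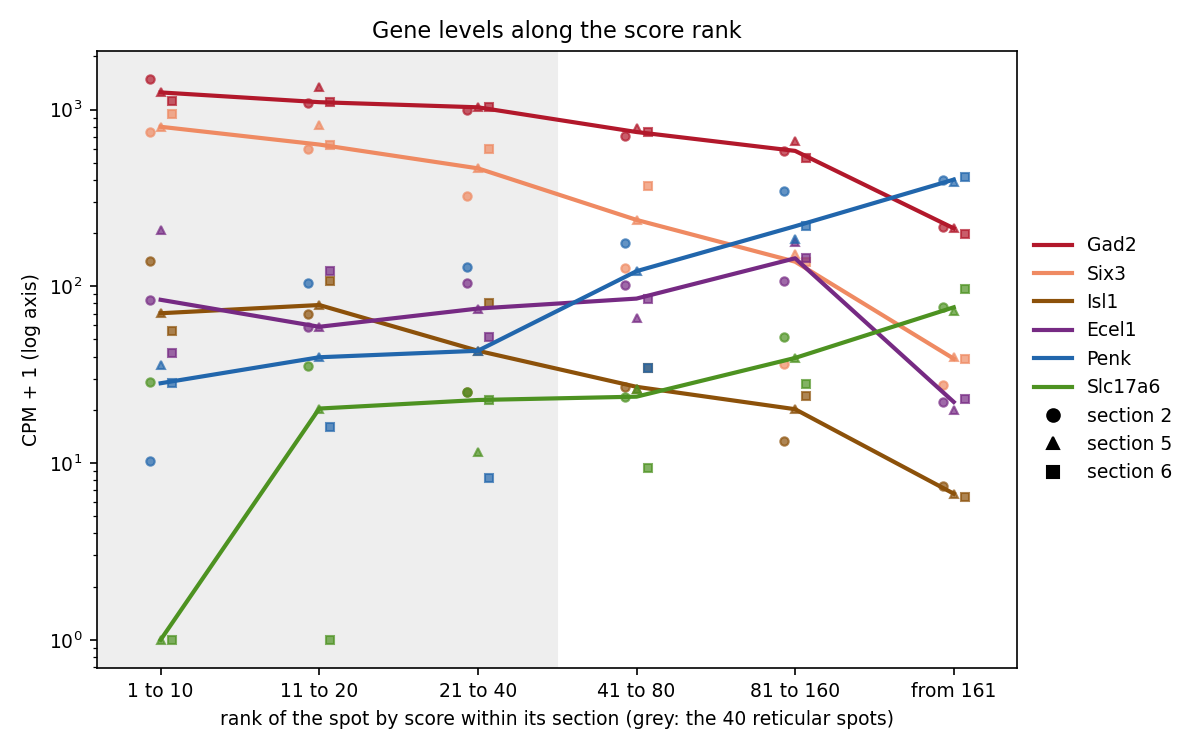
Level in CPM plus 1 (log axis) of 6 genes in bins of spots ordered by score within each section, with a point for each section, a line through the median of the 3 sections and a grey band over the 40 reticular spots. The medians of Gad2 and Six3 decline with rank, those of Penk and Slc17a6 climb, and that of Ecel1 is highest, 143 CPM, at ranks 81 to 160.

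Within the 120 spots, markers were shared unevenly. Six3 and Sst both had a count in 92 spots, Six3 alone in 10, Sst alone in 8 and neither in 10. Spp1, found in 15, 8 and 20 of the 40 spots of sections 2, 5 and 6, was accompanied by Sst in 38 of its 43 spots. Spp1 and Ecel1 both had a count in 16 spots, Spp1 alone in 27, Ecel1 alone in 33 and neither in 44. The sections differed: Spp1 came with Ecel1 in 11 spots and without it in 4 in section 2, with it in 1 and without it in 7 in section 5, and with it in 4 and without it in 16 in section 6. A missing count at these depths is not absence of the RNA. The level of Sst per 10000 counts ranged between 0 and 29.3 in section 2, 0 and 64.2 in section 5, and 0 and 39.6 in section 6, with medians of 4.31, 13.5 and 11.6.

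To set the reticular spots beside other deep forebrain tissue, 2 more sets of 40 spots per section were chosen. Striatal spots had the highest summed level of Ppp1r1b, Adora2a, Drd1 and Rgs9, which mark the GABA projection neurons of the striatum. Relay thalamic spots had the highest summed level of Prkcd, Ramp3 and Tnnt1, which mark excitatory thalamic neurons. Reticular spots could not enter either set, which kept 2 of them out of the relay set and none out of the striatal set. All 3 sets were fitted together, so both comparisons use the same reticular sums, and the genes that chose a set were not tested against it.

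Against striatal spots, which are also rich in GABA neurons, 1129 of 6194 genes tested were higher in reticular spots (18.2%) and 1144 were lower (18.5%). With DESeq2 the counts were 632 higher and 686 lower. All 7 tested genes of GABA synthesis and transport were higher, Gad2 by 1.45 ± 0.13 (adjusted p = 1.76e-17). Six3 averaged 619 ± 92.4 CPM in reticular spots and 128 ± 31.7 CPM in striatal spots (SD, n = 3 sections each), a difference of 2.26 ± 0.17 on the log2 scale. Isl1, which striatal neurons of the direct pathway also express, stood at 69.4, 58.8 and 79.2 CPM in reticular spots, against 31.8, 29.2 and 13.2 CPM in striatal spots (1.42 ± 0.38, adjusted p = 0.00127). Without section 6 the Isl1 difference was 1.01 (adjusted p = 0.0735), and with DESeq2 it was 1.49 (adjusted p = 0.0639). Meis2 ran the other way, at 186, 211 and 209 CPM in reticular spots, against 429, 443 and 458 CPM in striatal spots (-1.19 ± 0.16, adjusted p = 7.31e-10).

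Fast-firing genes divided these GABA populations: 17 of 22 tested were higher in reticular spots and 4 lower. Vamp1 averaged 430 ± 74.4 CPM in reticular spots and 34.1 CPM in striatal spots (3.53 ± 0.23), and Nefh averaged 293 ± 99.7 CPM in reticular spots and 29.3 CPM in striatal spots (3.24 ± 0.25). Hapln4, Kcnip1 and Gabra3 were higher by 3.15 ± 0.29, 3.62 ± 0.34 and 2.92 ± 0.37. Sst was higher by 2.36 ± 0.15 and Spp1 by 4.76 ± 0.45, while Pnoc had no count in striatal spots and was at least 20.4-fold higher in reticular spots, from a floor of 3 counts over all striatal spots. The T-type channel genes sorted differently from each other. Cacna1h averaged 18.6 CPM in reticular spots and 72.2 CPM in striatal spots (-1.91 ± 0.40, adjusted p = 4.90e-05), Cacna1g was higher by 2.21 ± 0.60 (adjusted p = 0.00160; with 20 spots per section 1.61, adjusted p = 0.147), and Cacna1i did not pass, at 0.11 ± 0.29 (adjusted p = 0.799).

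All 10 tested striatal genes were lower in reticular spots. Penk averaged 46.5 CPM in reticular spots and 2546 CPM in striatal spots (-5.74 ± 0.20). Pde10a, a cyclic nucleotide phosphodiesterase, averaged 29.9 CPM in reticular spots and 1461 CPM in striatal spots. Bcl11b, the striatal factor CTIP2, was lower at -6.03 ± 0.30. The striatal set carries less myelin, with Mbp at a mean of 4691 ± 549 CPM in reticular spots and 2165 CPM in striatal spots, and all 12 oligodendrocyte genes tested were higher in reticular spots. How far this enters the other differences was not tested.

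Against relay thalamic spots, 487 of 6195 genes tested were higher in reticular spots (7.86%) and 606 were lower (9.78%), and with DESeq2 the counts were 232 and 293. All 9 tested reticular markers were higher. Six3 stood at 516, 646 and 695 CPM in reticular spots, against 14.4, 30 and 39.4 CPM in relay spots (4.57 ± 0.23, adjusted p = 2.35e-34). Meis2 stood at 186, 211 and 209 CPM in reticular spots, against 12, 6.0 and 0 CPM in relay spots (4.75 ± 0.37), so Meis2 separated reticular from relay spots although it was higher in striatal spots. Isl1, at 69.4, 58.8 and 79.2 CPM in reticular spots, stood at 2.40, 0 and 0 CPM in relay spots (adjusted p = 2.05e-10). Gad2 was higher by 4.32 ± 0.19, Sst by 4.16 ± 0.18 and Ubash3b by 4.30 ± 0.27. Relay spots also carried less myelin RNA, with 8 of 12 tested oligodendrocyte genes higher in reticular spots and none lower. Mbp averaged 4691 CPM in reticular spots and 2975 CPM in relay spots (0.69 ± 0.11, adjusted p = 3.08e-07). Without Pvalb in the score this difference in Mbp was 0.27 (adjusted p = 0.117). How far myelin enters the other differences from relay spots was not tested.

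Excitatory thalamic genes were at low levels in reticular spots. All 8 tested relay genes were lower. Slc17a6, the vesicular glutamate transporter of the thalamus, stood at 27.7, 9.79 and 10.8 CPM in reticular spots, against 604, 474 and 501 CPM in relay spots (-4.86 ± 0.25, adjusted p = 4.23e-33). Tcf7l2, a Wnt-pathway factor that maintains thalamic identity, averaged 19.8 CPM in reticular spots and 735 CPM in relay spots (-5.21 ± 0.24). Ntng1, an axon guidance protein, averaged 4.96 CPM in reticular spots and 410 CPM in relay spots, and Gbx2, a homeobox factor of developing relay neurons, had no count in reticular spots and was at least 30.9-fold lower there. Ramp3, a gene of the relay score, averaged 273 CPM in reticular spots and 344 CPM in relay spots, which is given without a test.

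The 2 thalamic sets also differed in channels and receptors. Cacna1i stood at 44.4, 73.4 and 112 CPM in reticular spots, against 16.8, 6.00 and 7.89 CPM in relay spots (2.57 ± 0.43, adjusted p = 1.01e-06). Cacna1g stood at 25.0, 24.5 and 32.4 CPM in reticular spots, against 142, 198 and 181 CPM in relay spots (-2.57 ± 0.29, adjusted p = 9.82e-13). The Cav3.3 gene was thus higher and the Cav3.1 gene lower in reticular spots, without overlap for either. Cacna1h did not pass at 1.89 ± 0.74 (adjusted p = 0.0654), but it passed without section 5 (3.49, adjusted p = 0.00929), with 80 spots per section (1.66, adjusted p = 0.00306) and without Pvalb, Gad1 or Slc32a1 in the score. Cacna1h had only 4 counts in all relay spots. Gabra4, at a mean of 32.7 CPM in reticular spots and 250 CPM in relay spots, was lower at -2.99 ± 0.27 and Gabrd at -1.88 ± 0.27. All 5 tested metabotropic glutamate receptor genes were lower. Grin2a (-2.12 ± 0.37), Pcp4 (-3.48 ± 0.17) and Egr1 (-1.64 ± 0.33) were lower than in relay spots too. Other differences from the other spots were not found against relay spots. Hpca (0.38, adjusted p = 0.412), Chrm1 (1.10, adjusted p = 0.424), Junb (0.31, adjusted p = 0.766) and Agt (0.12, adjusted p = 0.758) did not pass. Calb1 was lower at -2.98 ± 0.23 and Calb2, which encodes calretinin, stood at 61.0, 14.7 and 18.0 CPM in reticular spots, against 510, 456 and 217 CPM in relay spots. Nefh (0.40 ± 0.17, adjusted p = 0.108) and Hcn2 (0.40 ± 0.18, adjusted p = 0.126) did not pass, whereas Vamp1 was higher by 1.93 ± 0.19. With 80 spots per section both passed, Nefh at 0.61 (adjusted p = 0.000359) and Hcn2 at 0.52 (adjusted p = 0.00404), and Nefh also passed without Ecel1 in the score (adjusted p = 0.0302).

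**Figure D4:**
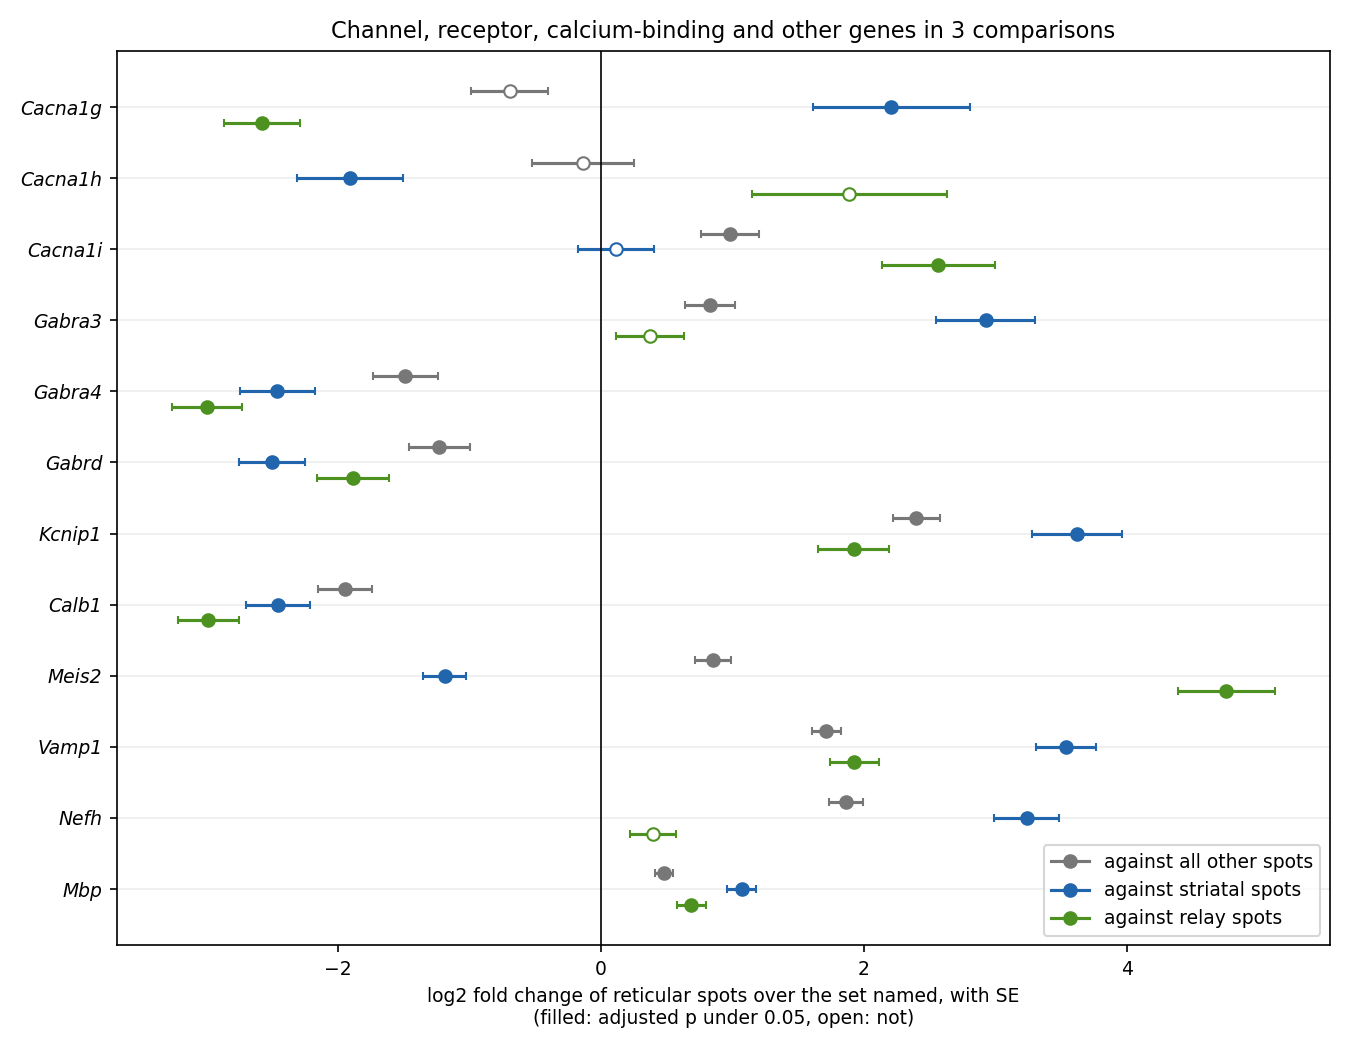
Log2 fold change of reticular spots over all other spots, striatal spots and relay thalamic spots (x axis) for 12 genes, with bars of 1 SE and filled points for an adjusted p under 0.05. Cacna1g lies at 2.21 against striatal spots and -2.57 against relay spots, Cacna1h at -1.91 against striatal spots and at 1.89, which passed under some other selections but not here, against relay spots, and Kcnip1 is positive in all 3.

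The anterior section was set beside the posterior sections for the reticular spots alone. With 1 anterior section there is no test. Of 1291 genes with at least 50 counts, none was more than 2-fold higher in the anterior section than in both posterior sections and 7 were more than 2-fold lower (0.542%). For scale, section 2 set in the same way against sections 5 and 6 gave 3 higher and 1 lower, and section 6 gave 1 higher and 5 lower. Of the 7, 4 encode hemoglobin chains of red blood cells, such as Hbb-bs at 113 CPM (exact Poisson 95% interval 71.4 to 169, counting error only) in the anterior section, against 846 and 868 CPM in posterior sections 2 and 6. In the other spots of the anterior section Hbb-bs stood at 712 CPM. The remaining genes were Sgta, Golga7 and Klc2, and none of the reticular markers was among the 7.

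The single-cell table, from acute slices of B6 mice, offered a second view of the same genes. Of 1216 wells, 904 with at least 1000 genes detected were kept, from 3 animals, and 6 of them were GABA cells by a rule of at least 2 counts each of Gad1 and Slc32a1. The dissection was aimed at excitatory anterior thalamus, and so few GABA cells give values only and no test. Cells 1 and 2 came from animal 1, cell 3 from animal 2 and cells 4, 5 and 6 from animal 3, and their total counts were 71185, 41471, 17566, 149223, 84166 and 40846.

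Cells 1 to 4 held Pvalb, Six3 and Sst together. Pvalb had 262, 106, 71 and 611 counts in these 4 cells, Six3 had 22, 109, 10 and 66, and Sst had 14, 158, 9 and 202. In cells 5 and 6, Pvalb had 0 and 1, Six3 0 and 2, and Sst 0 and 0 counts. Ramp3 had 128, 14, 17 and 115 counts in cells 1 to 4, and Chrm2 had 46, 16, 12 and 23. Ubash3b (93, 0, 9 and 98), Isl1 (17, 0, 0 and 9) and Ecel1 (0, 12, 0 and 18) were each missing from some of the 4, and Spp1 had 0, 1, 0 and 0 counts. Cell 5 had 105 counts of Gad2 and 32 of Calb2. Cell 6 had 2 counts of Gad1 but 13 of Slc17a6, 23 of Tcf7l2 and 36 of Ntng1, which are relay genes. Doublets were not called. Among the other 898 cells, Six3 had a count in 9 cells, which is 1.00%, Sst in 6, Gad2 in 20 and Ramp3 in 257. Spp1 had a count in 90 of these cells (10.0%) at 15.9 CPM, against 2.47 CPM in the 6 GABA cells. The latter value is 1 count in 1 of the 6 cells, so no direction can be read from it.

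**Figure D5:**
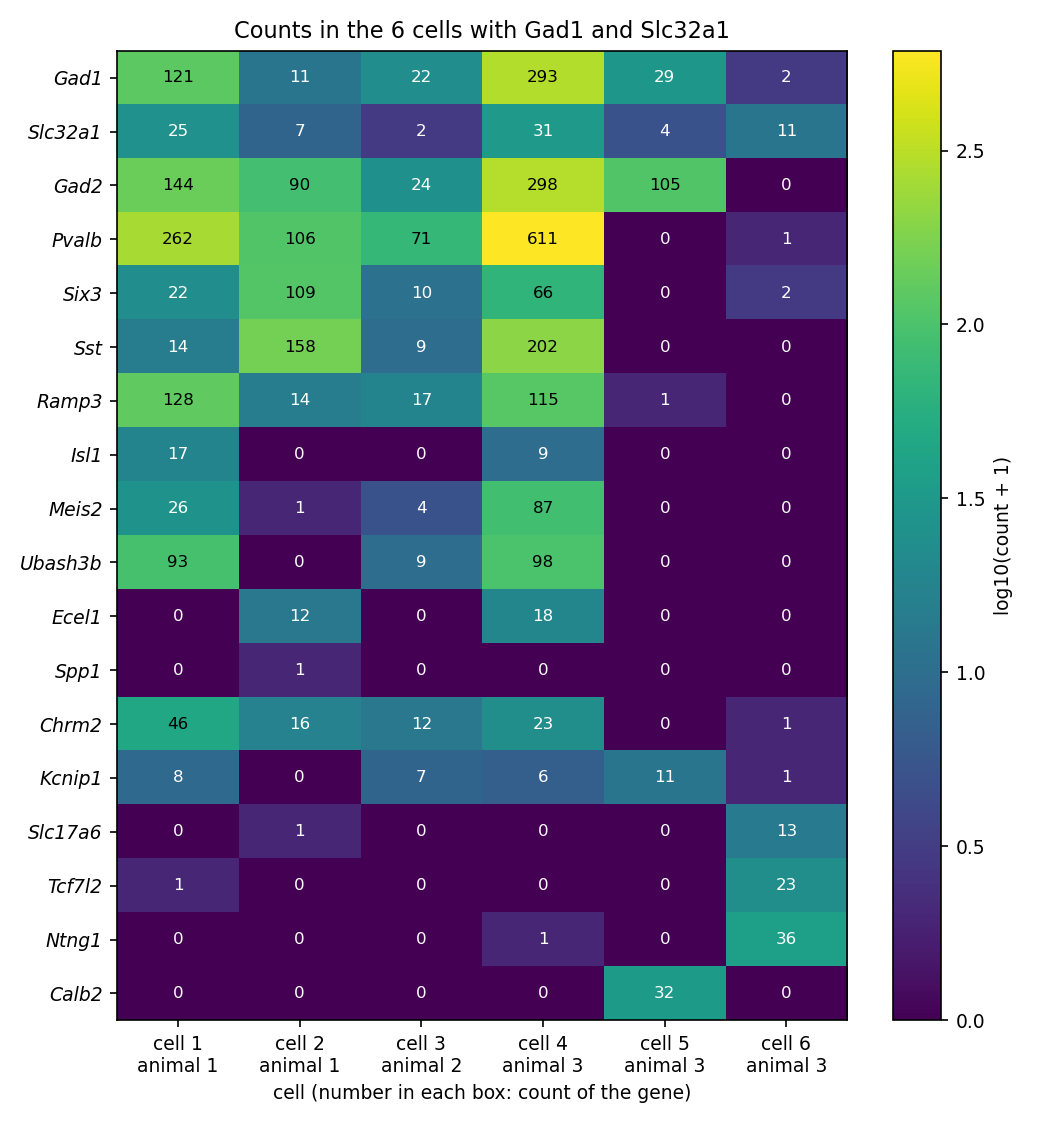
Counts of 18 genes in the 6 GABA cells of the single-cell table, with 1 column for each cell. Six3, Pvalb and Sst are present in cells 1 to 4, and Slc17a6, Tcf7l2 and Ntng1 are highest in cell 6.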

How the data were processed

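For the sections, the authors deposited unnormalized counts for 28692 genes in 7827 spots, and the deposited spot and well lists give, per the file headers, the section of each spot and the animal of each well (other unit). For the cells, the authors deposited unnormalized counts by well. Per the submitters' processing notes, Space Ranger, Seurat and the builds mm10 and NCBIM37 were used. Their roles, and whether reads or molecules were counted in the wells, are not given in the sources used here. Strand use in counting is not given either, so that reads of overlapping or antisense genes may be mixed. No name ties the 14 labelled samples of cells to the plates, and 9 wells with a source of another animal were left out.

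Counts were summed per section and spot set and compared with edgeR 4.0.16 (quasi-likelihood F test, TMM, filterByExpr, R 4.3.3) with the section as a block, and p-values were adjusted by Benjamini-Hochberg over all genes tested. The genes of a score were not tested in the comparison it defined. CPM were computed from the sums, with no pseudocount, and n is the number of sections. Against the other spots, residuals of sums from the same section correlated at 0.0508 to 0.119, and those from different sections at -0.0810 to 0.0216. In the fit of 3 sets these ranges were 0.0249 to 0.176 and -0.115 to 0.0309, and they overlap. Each set was centred over its sections, which lowers the values between sections, so these weak correlations do not decide whether a block is needed. The section was used as a block because the sums compared come from the same tissue section. The residual degrees of freedom were 2 against the other spots and 4 in the fit of 3 sets. The procedure was tested on simulated data. Summed counts per set and section set the precision, and intervals and floors cover counting error only. PCR duplicates could add to it in the wells.

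Genes were named by a rule, which took per comparison the 10 largest changes in each direction among genes past an adjusted p of 0.05. Such genes changed at least 2-fold in the fit, in the same direction in every section, and averaged 20 CPM or more where higher. The rule added up to 4 members of each of 31 gene lists by adjusted p, the score genes and a fixed set of markers. The text reports a selection of these. Genes named without a value, and Dlx5, Dlx6os1, Nkx2-1, Lhx6, Gjd2 and the genes of the anterior comparison, fall outside it and were chosen after their values were seen. Members, lists and tests were chosen with earlier results of these data known. Counts over a list refer to its members that passed the filter on low counts. No gene list was tested as a set. Alternatives were DESeq2 1.42.0, relative log expression scaling, no filter, no block, each section left out, 20 or 80 spots per section, a minimum of 3000 counts, and scores without each gene. Comparison sets excluded reticular spots. Promoter windows were taken from RefSeq, 120 bases before each start. Figures were drawn with matplotlib 3.10.9. Some named genes are not reported here.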

Additional observations from a re-analysis of the deposited data

Results flagged for a closer look

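For Cacna1h, which encodes the T-type calcium channel Cav3.2, the log2 ratio of reticular over relay thalamic spots (CPM, with 1 CPM added) was -0.28 in the anterior section, against 4.35 in posterior section 2 and 2.19 in posterior section 6. The anterior section and both posterior sections thus lay on opposite sides of 0. The gene stood at 14.7 CPM in the reticular spots and 18.0 CPM in the relay spots of the anterior section. In the relay spots of sections 2 and 6 it stood at 0 and 3.94 CPM. It had 4 counts in all relay spots and 16 in all reticular spots. At so few counts the size and sign of these ratios are uncertain. Over all 3 sections the difference between reticular and relay spots did not pass (adjusted p = 0.0654), and without the anterior section it did (3.49, adjusted p = 0.00929). With 1 anterior section the difference between anterior and posterior was not tested.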

How the results depend on the processing

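Of 133 named differences that passed, none lost its call or sign with relative log expression scaling, no filter, 80 spots per section, the minimum of 3000 counts, or scores without Slc17a7, Gad1, Slc32a1 or Ecel1. Without the section as replicate block the counts of higher and lower genes were 766 and 1062 against the other spots, 998 and 1045 against striatal spots, and 393 and 509 against relay spots, and no named call was lost. Leaving out 1 section gave 609 to 678 higher and 851 to 985 lower genes against the other spots. With DESeq2, 618 genes were higher and 605 lower than in the other spots, 632 higher and 686 lower than in striatal spots, and 232 higher and 293 lower than in relay spots. With 20 spots per section the counts were 580 higher against the other spots, 637 higher and 671 lower against striatal spots, and 305 higher and 372 lower against relay spots, and the calls of Kcnk3 against the other spots (1.05, adjusted p = 0.0661) and Cacna1g against striatal spots (1.61, adjusted p = 0.147) were lost. The cause was not tested, but fewer spots hold fewer counts. Only 122 of the 133 named differences were refitted with 20 spots per section, and the rest have no value there.

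Cacna1h against the other spots stood between -0.343 and 0.0428 with 1 section left out, turning positive without section 5, and was positive with 20 (0.0899) or 80 (0.262) spots, and without Pvalb (0.173) or Slc32a1 (0.0873) in the score. Cacna1i against striatal spots stood between -0.381, without section 6, and 0.382 with 1 section left out, and was negative with 80 spots (-0.163) and without Pvalb (-0.208) or Ecel1 (-0.00764). Without Pvalb in the score, 5 named calls were lost: Mbp against the other spots and against relay spots, and Mobp, Kcnn2 and Kcnk3 against the other spots. Calls lost without section 6 (Cacna1i against the other spots, Isl1 against striatal spots) or with DESeq2 (Isl1 against striatal spots) stand beside those results, as do differences of Cacna1g, Cacna1h, Nefh and Hcn2 that passed only under an alternative. Low counts limit genes such as Ecel1, Lancl3, Kcnq5 and Cacna1h.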

Other observations

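Further lists were read in the comparison of reticular spots with all other spots. Of all genes tested there, 6.89% were higher and 9.39% lower. In lists of 8 to 12 genes, 1 or 2 calls lie near these shares and are not read as results about the list. Of 8 tested choroid plexus and ependymal genes 7 were lower and 1 did not pass, with Ttr, the thyroid hormone carrier of the choroid plexus, at a mean of 339 CPM in reticular spots and 5132 CPM in the other spots. Of 9 tested hypothalamic and zona incerta genes 1 was higher and 5 were lower, and of 10 cortical interneuron genes 1 was higher and 4 were lower. Of 12 monoamine receptor genes tested 1 was higher and 3 were lower. Of 8 microglial and 12 vascular genes none was higher, and 1 and 2 were lower. Of 6 tested genes of electrical synapses, Gja1 and Panx2 were higher, while Gjd2, which encodes connexin 36 of the gap junctions between reticular neurons, did not pass at 1.02 on the log2 scale (adjusted p = 0.296). Of 5 tested cholinergic neuron genes Ache, the acetylcholine-degrading enzyme, was higher, at a mean of 93.7 CPM in reticular spots and 51.3 CPM in the other spots.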
